A study of Mus musculus with 16 samples.

Results

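The genes described here encode the subunits of potassium channels: every gene whose symbol is Kcn followed by a family letter or letters and a number, and whose mean was at least 10 normalized reads at 1 of the ages measured. Of 84 such symbols, 81 met that level, out of 20494 genes in all, and they fall into 20 families from Kcna to Kcnv. Of the 81, 78 reached the level at P1, 80 at P14 and 77 at both ages. The rule used only the mean level at each age over Ctrl and PNS libraries together. The 3 symbols left out were Kcne1, Kcne2 and Kcne3, whose higher table means were 2.45, 3.19 and 6.42. Just inside the limit lay Kcnk15, with means of 2.46 at P1 and 15.1 at P14. Kcng3 and Kcng4 averaged 9.71 and 8.74 at P1 and Kcnn4 averaged 7.28 at P14, so these and Kcnk15 passed only through the age at which they were higher, and the direction of their change with age is tied to the rule.

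Poly(A) RNA was sequenced from the medial prefrontal cortex of male ICR mice, an outbred strain. Pups were born to dams exposed to stress during pregnancy (prenatal stress, PNS) or to unstressed dams (Ctrl), and were taken 1 day (P1) or 14 days (P14) after birth. Each of the 4 groups, Ctrl P1, PNS P1, Ctrl P14 and PNS P14, held 4 libraries. The labels give neither the kind of stress nor the litter of each library. If libraries share litters or animals, the p-values measure a spread that may be technical. The comparisons ask how the channel genes changed from P1 to P14 and whether PNS altered their level at either age.

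Potassium channels let potassium leave the cell, set the resting potential of neurons and end each action potential. Voltage-gated subunits open when the membrane depolarizes, calcium- and sodium-activated subunits open when those ions enter, inward rectifiers and tandem pore domain subunits act near rest, and auxiliary subunits change how the pore proteins traffic and gate. In the rodent cortex the first weeks after birth are known as the time when neurons become less excitable at rest and fire faster, narrower spikes.

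All pore-forming subunits share a short stretch that lines the narrowest part of the pore, the selectivity filter, a feature that defines the superfamily. It was searched in the coding sequences as 5 codons in frame (first ACN, AGN or TCN, then NTN, GGN, one of TAN, TTN or CTN, and GGN), a pattern written with the family already known. The pattern was found in 70 of 70 pore-forming members and in 0 of 11 auxiliary members, against 207 of 14811 other tested genes with a coding sequence (1.40%). Of the 11 tandem pore domain members 10 held it at 2 places and Kcnk1 at 1 place, while each of the 59 other pore-forming members held it once. The stretch is shown for 10 members that the results turn on, on the coding strand (GENCODE M21 transcripts, GRCm38), with the 15 bases of the filter in capitals and 15 bases on either side. Kcnk9 holds the pattern at codons 93 and 199, and only the place at codon 199, whose window lies within 1 exon, is shown.
Kcnc4: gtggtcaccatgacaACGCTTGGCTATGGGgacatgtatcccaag
Kcnh3: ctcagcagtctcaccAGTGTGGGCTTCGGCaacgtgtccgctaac
Kcnh8: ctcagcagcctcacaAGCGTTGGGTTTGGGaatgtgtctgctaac
Kcnf1: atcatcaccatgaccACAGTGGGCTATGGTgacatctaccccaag
Kcnma1: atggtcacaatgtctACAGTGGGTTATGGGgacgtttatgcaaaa
Kcnn1: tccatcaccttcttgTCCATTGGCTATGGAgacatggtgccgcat
Kcnj9: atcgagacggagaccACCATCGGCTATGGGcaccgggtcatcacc
Kcnj4: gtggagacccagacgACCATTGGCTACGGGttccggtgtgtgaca
Kcnj5: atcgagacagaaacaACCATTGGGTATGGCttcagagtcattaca
Kcnk9: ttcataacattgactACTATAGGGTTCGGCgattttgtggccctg
The windows lie in exons at chr3:107447784-107447828 (minus strand), chr15:99232914-99232958 (plus), chr17:52877976-52878020 (plus), chr12:17175046-17175090 (minus), chr14:23528398-23528442 (minus), chr8:70850642-70850686 (minus), chr1:172326169-172326213 (minus), chr15:79485352-79485396 (minus), chr9:32322544-32322588 (minus) and chr15:72512704-72512748 (minus). Kcnh3 and Kcnh8 share the first bases of the filter pattern (AGN) and its TTN codon, and they moved in opposite directions with age, as described with the other Kcnh genes.

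Reads recovered per library ranged from 33977413 to 58842635 at P1 and from 15068575 to 72978561 at P14. The 5 projection neuron markers, the check of the labelled cortex, summed to 1539 to 2166 TMM-scaled counts per 1000000 reads (CPM) in Ctrl P1 and to 3393 to 3795 in Ctrl P14, with 1 of the 5 higher and 3 lower at P14. The marker that was higher, Slc17a7, carried the rise of the sum, with means of 114 CPM in Ctrl P1 and 2983 in Ctrl P14. Markers of the olfactory bulb, which lies next to the dissected tissue, summed to 17.2 to 53.5 CPM in Ctrl P1 and to 119, 252, 176 and 7.80 in PNS P1 replicates 1 to 4. Meningeal markers summed to 315 to 362 CPM in Ctrl P1 and to 455, 621, 671 and 367 in PNS P1. PNS P1 replicates 2 and 3 were highest in both lists, replicate 1 was also above Ctrl, and replicate 4 was below the Ctrl range for bulb and just above it for meninges. All 7 bulb markers tested and all 4 meningeal markers had a positive PNS difference at P1. At P14, oligodendrocyte markers ranged from 431 to 1587 CPM over both groups, and PNS P14 replicate 4 stood apart with 5016 CPM of projection neuron markers against 3393 to 3811 in the other P14 libraries. Most of the 5016 CPM was Slc17a7, whose highest value in PNS P14 was 4258.

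Most potassium channel genes rose from P1 to P14 in Ctrl, led by the inward rectifiers Kcnj9 and Kcnj4 and the voltage-gated Kcnh3, while a smaller set fell, led by Kcnh8 and Kcnj5. In all, 60 of the 81 members were higher at P14 than at P1, 11 were lower and 10 did not pass (edgeR quasi-likelihood test, adjusted p below 0.05). Of all 17139 genes tested, 34.8% were higher and 36.4% lower, or 71.2% in either direction. The median log2 change of the members was 1.32, against -0.04 over all genes. Among the 77 members that reached the level at both ages, 57 were higher, 10 were lower and 10 did not pass, with a median of 1.20. A rise of at least 4-fold was called in 25 members (5.83% of all genes) and a fall of at least 4-fold in 2 (3.44%), and in 22 and 2 of those 77. Ctrl P1 and Ctrl P14 libraries did not overlap in 69 of 81 members and in 65 of those 77, against 66.7% of all genes. In bulk tissue fewer cells of a type and less RNA per cell cannot be told apart.

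The CPM of each gene was divided by the length of its annotated exons (CPM per kilobase of exon, RPKM) and summed over all members. The channel genes gave 292, 323, 306 and 323 RPKM in the Ctrl P1 libraries and 975, 979.7, 965 and 932 in the Ctrl P14 libraries. The sum was thus 3.10 times as high at P14, with no overlap between ages. The inward rectifiers had the largest ratio of P14 to P1 as a group, 6.41, from 29.9 ± 1.74 to 192 ± 3.43 RPKM (SD, n = 4). Most of that P14 sum came from Kcnj4, Kcnj10 and Kcnj9, at 64.3, 47.9 and 38.7 RPKM in Ctrl P14. These had 3.21, 6.93 and 1.70 RPKM in Ctrl P1. The ratio is thus not a trait of all 14 inward rectifiers, of which 8 rose and 3 fell. The electrically silent subunits followed with a ratio of 5.08, from 26.9 ± 2.97 to 137 ± 2.30. The voltage-gated subunits went from 122 ± 8.69 to 332 ± 11.7, the auxiliary subunits from 71.7 ± 3.66 to 169 ± 6.10, the tandem pore domain subunits from 41.4 ± 2.37 to 90.6 ± 4.77 and the ion-activated subunits from 19.1 ± 0.441 to 42.7 ± 1.54. As a share of all channel RNA per length, inward rectifiers went from 9.61% to 19.9% and voltage-gated subunits from 39.2% to 34.5%.

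**Figure D1:**
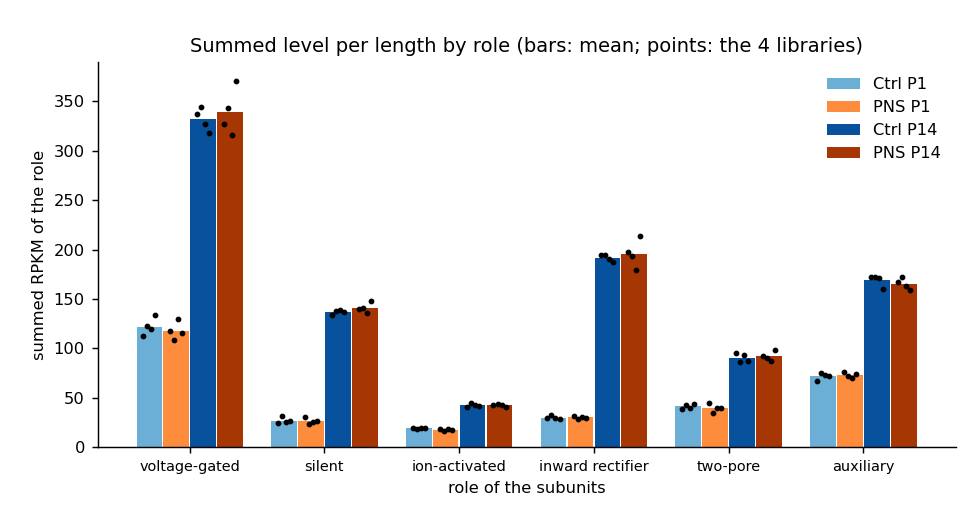
Summed RPKM of the members of each role (vertical axis) in the 4 groups; bars are means and points the 4 libraries of a group. Each role is higher at P14 than at P1, and the inward rectifiers go from 29.9 to 192 in Ctrl, mostly through Kcnj4, Kcnj10 and Kcnj9.

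By role, 21 of 28 voltage-gated subunits rose and 4 fell in Ctrl, with a median log2 change of 1.08. All 9 silent subunits rose (median 2.11), of which Kcng3 and Kcng4 were in the list through P14 alone, and the other 7 had a median of 1.65. Of the ion-activated subunits 5 of 8 rose and 2 fell (median 1.33). Without Kcnn4, in the list through P1 alone, 5 of 7 rose and 1 fell (1.61). Of the tandem pore domain subunits 8 of 11 rose and 1 fell (1.40). Without Kcnk15, in the list through P14 alone, 7 of 10 rose and 1 fell (1.09). Of the inward rectifiers 8 of 14 rose and 3 fell (1.18), and of the auxiliary subunits 9 of 11 rose and 1 fell (0.88).

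**Figure D2:**
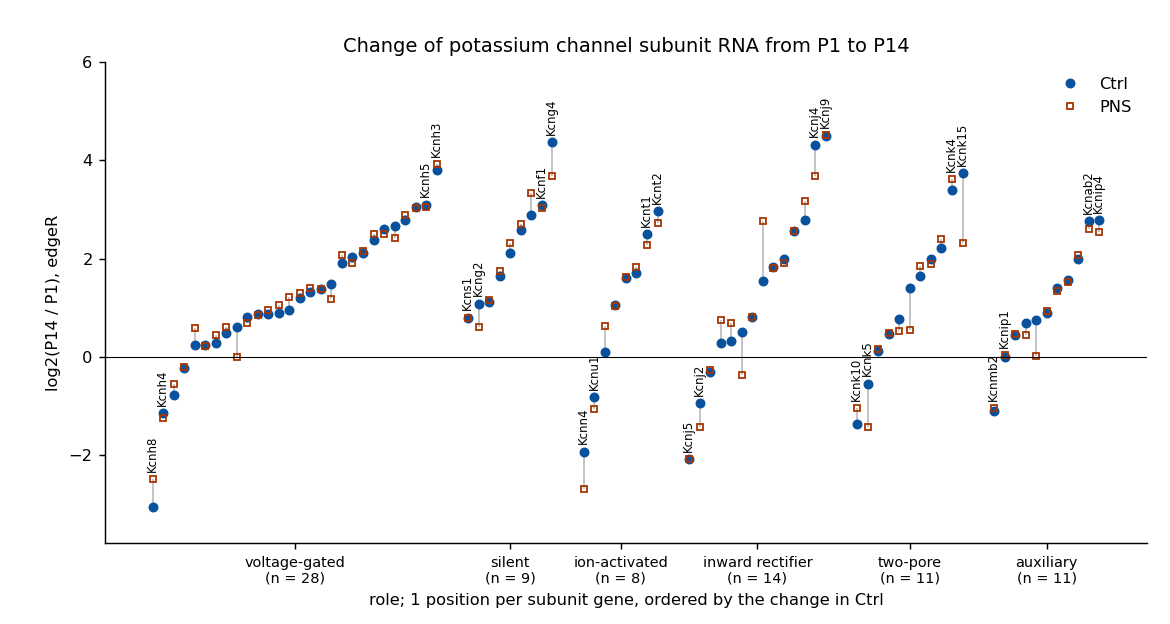
The log2 change from P1 to P14 (vertical axis) of each of the 81 members, grouped by role and ordered by the change in Ctrl; filled circles are Ctrl and open squares PNS. Values reach from -3.06 for Kcnh8 to 4.50 for Kcnj9 in Ctrl, and the PNS values lie close to the Ctrl values for most members.

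Among the voltage-gated subunits, 5 of 6 Kcna genes rose, with log2 changes from 0.60 to 2.66 over the family. Kcna1 and Kcna2 encode subunits of the low-threshold channels of axons that limit repeated firing. Kcna1 measured 6.70, 6.10, 5.68 and 6.46 CPM in the 4 Ctrl P1 libraries and 35.1, 33.5, 32.5 and 28.2 in the 4 Ctrl P14 libraries. It was 5.18-fold higher at P14 (log2 change 2.37 ± 0.09 (SE), adjusted p = 2.69e-13), and the ages did not overlap. Kcna2 measured 20.9, 27.6, 23.9 and 25.9 CPM in the 4 Ctrl P1 libraries and 137, 189, 150.1 and 144 in the 4 Ctrl P14 libraries, a 6.31-fold rise (log2 change 2.66, adjusted p = 3.32e-11). All Ctrl P14 values of Kcna2 lay above all P1 values, with the highest in replicate 2. Kcna4, the A-type member of this family, rose 2.61-fold, Kcna6 1.93-fold and Kcna3 1.74-fold. Kcna6 shares 39.6% of its exon bases with a gene on the other strand, and since the strand of counting is not given in the sources used here its reads are uncertain. Kcna5 did not pass (log2 change 0.60, adjusted p = 0.0553).

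Kcnb2, which encodes a delayed rectifier of the Kv2 family, rose 1.83-fold. The Kcnc genes encode channels that open and close fast and allow high firing rates, and Kcnc1, Kcnc2 and Kcnc4 rose. Kcnc1 measured 63.4, 61.3, 71.4 and 78.8 CPM in the 4 Ctrl P1 libraries and 131, 128, 134 and 109 in the 4 Ctrl P14 libraries and rose 1.82-fold (log2 change 0.87, adjusted p = 4.58e-07). Kcnc2, which with Kcnc1 is known from fast-spiking interneurons, measured 8.96, 8.66, 10.02 and 9.02 CPM in the 4 Ctrl P1 libraries and 48.9, 62.3, 58.5 and 51.6 in the 4 Ctrl P14 libraries. Its rise was 6.04-fold (log2 change 2.59, adjusted p = 9.81e-13), and every P14 value was several times every P1 value. Kcnc4, whose channel inactivates quickly, measured 16.2, 21.8, 21.7 and 20.9 CPM in the 4 Ctrl P1 libraries and 174, 165, 160.2 and 166 in the 4 Ctrl P14 libraries. Kcnc4 rose 8.26-fold (log2 change 3.05, adjusted p = 1.06e-12), the largest rise of these 3.

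The 3 Kcnd genes, which encode the A-type channels of dendrites, had log2 changes from -0.23 to 0.88. Kcnd2 measured 68.7, 73, 74.3 and 82.8 CPM in the 4 Ctrl P1 libraries and 106, 103, 106 and 101 in the 4 Ctrl P14 libraries, a 1.39-fold rise with no overlap between ages (log2 change 0.48, adjusted p = 0.000247). Kcnd1 rose 1.84-fold and Kcnd3 fell by 0.23 on the log2 scale (adjusted p = 0.027) with overlapping ages. The fall of Kcnd3 missed the threshold without Ctrl P1 replicate 3 or 4 or without Ctrl P14 replicate 3 or 4, with log2 changes of -0.20 to -0.19 and adjusted p-values of 0.0725 to 0.0897 by edgeR. Per length, Kcnd2 had rank 3 among the members in Ctrl P1 (14.5 RPKM) and rank 16 in Ctrl P14 (20.2 RPKM).

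Of the Kcnq genes, whose channels carry the M-current that muscarinic receptors turn off, Kcnq3 and Kcnq5 rose. Kcnq3 measured 70.2, 87.8, 69.1 and 84.6 CPM in the 4 Ctrl P1 libraries and 298, 316, 276 and 282 in the 4 Ctrl P14 libraries, with no overlap (3.76-fold, log2 change 1.91, adjusted p = 5.72e-11). Per length, Kcnq3 stood at 5.30 RPKM in Ctrl P1 and 19.9 RPKM in Ctrl P14. Kcnq5 measured 50.9, 58.6, 52.6 and 60.4 CPM in the 4 Ctrl P1 libraries and 151, 143, 128 and 132 in the 4 Ctrl P14 libraries and rose 2.50-fold (log2 change 1.32, adjusted p = 2.33e-10). Kcnq1, best known from heart and inner ear, did not pass (log2 change 0.24).

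In the Kcnh family 5 of 8 members were higher and 2 lower, with log2 changes from -3.06 to 3.81. Both directions occurred in the Elk subgroup, which comprises Kcnh3, Kcnh4 and Kcnh8. Kcnh3, whose channel is known from forebrain neurons, measured 15, 24, 17.3 and 19.3 CPM in the 4 Ctrl P1 libraries and 277, 249, 268 and 265 in the 4 Ctrl P14 libraries. It rose 14-fold (log2 change 3.81 ± 0.12 (SE), adjusted p = 9.13e-14), with every P14 value far above every P1 value. Kcnh8 measured 2.49, 2.01, 2.58 and 1.79 CPM in the 4 Ctrl P1 libraries and 0.272, 0.258, 0.139 and 0.314 in the 4 Ctrl P14 libraries, an 8.36-fold fall (log2 change -3.06 ± 0.24 (SE), adjusted p = 4.15e-09). Its P14 level rested on few reads, and its mean of 10.03 normalized reads at P14 lay at the limit for the list. Kcnh4 measured 19.3, 13.8, 18.6 and 16.8 CPM in the 4 Ctrl P1 libraries and 8.16, 7.84, 7.25 and 7.45 in the 4 Ctrl P14 libraries, a 2.22-fold fall (log2 change -1.15, adjusted p = 1.43e-06) with no overlap between ages. Per length, Kcnh4 stood above Kcnh3 in Ctrl P1 (4.33 against 3.28 RPKM) and far below it in Ctrl P14 (1.94 against 46 RPKM). Both Eag genes rose: Kcnh1 measured 19, 20.6, 13.6 and 19.3 CPM in the 4 Ctrl P1 libraries and 113, 146, 127 and 117 in the 4 Ctrl P14 libraries (6.92-fold, log2 change 2.79, adjusted p = 3.33e-12), and Kcnh5 measured 2.80, 2.72, 2.26 and 2.53 CPM in the 4 Ctrl P1 libraries and 17.4, 28.1, 22.7 and 20.4 in the 4 Ctrl P14 libraries (8.55-fold, log2 change 3.10, adjusted p = 1.54e-11). Neither overlapped between ages. Of the Erg genes, Kcnh7 rose 4.07-fold and Kcnh6 2.77-fold, while Kcnh2 did not pass (log2 change 0.24, adjusted p = 0.072).

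**Figure D3:**
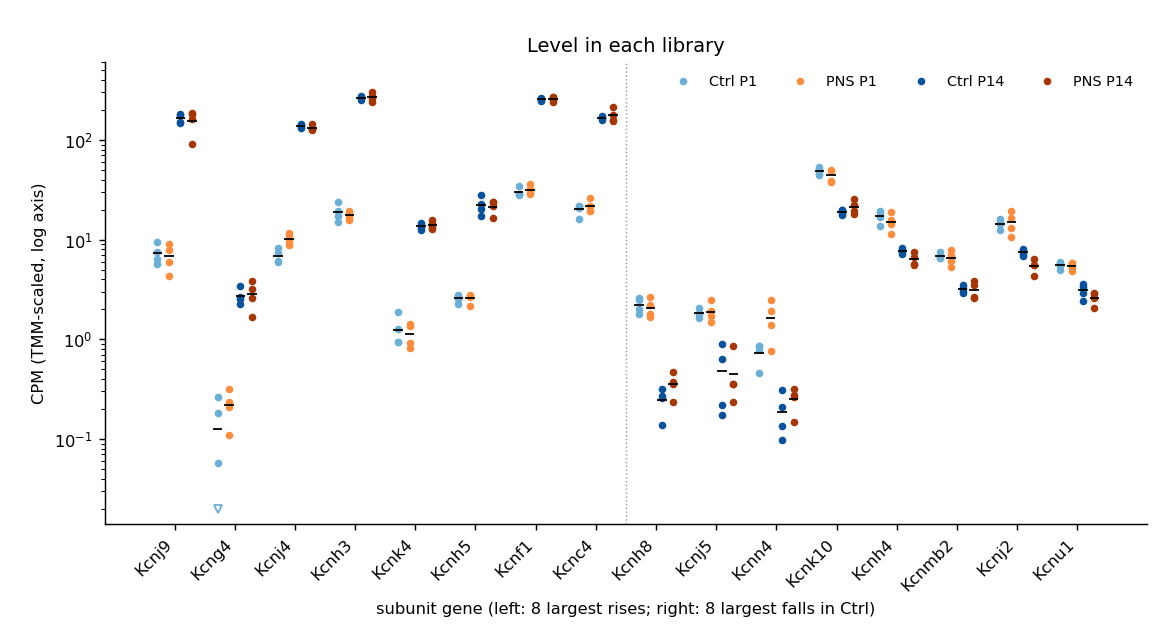
CPM (vertical log axis) of the 8 largest rises and the 8 largest falls in Ctrl among members with a mean of at least 50 normalized reads at 1 age, in all 16 libraries; points are libraries, short lines group means, and the open triangle marks 1 Ctrl P1 library of Kcng4 with 0 reads. The P1 and P14 points of each gene are separated in Ctrl.

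The silent subunits form no channel alone and modify Kv2 channels. All 9 rose with log2 changes from 0.79 to 4.38. Kcnf1 measured 28.9, 34.3, 28.2 and 28.4 CPM in the 4 Ctrl P1 libraries and 247, 259, 263 and 252 in the 4 Ctrl P14 libraries. The rise was 8.52-fold (log2 change 3.09 ± 0.09 (SE), adjusted p = 2.08e-14), and per length Kcnf1 had rank 2 of the 81 members in Ctrl P14 (53.4 RPKM). Kcng4 measured 0.0571, 0.183, 0.266 and 0 CPM in the 4 Ctrl P1 libraries and 2.56, 2.67, 3.42 and 2.27 in the 4 Ctrl P14 libraries. One P1 library held no read of Kcng4, so the fitted 20.8-fold rise rests on few P1 reads (log2 change 4.38 ± 0.46 (SE), adjusted p = 1.75e-07), and its P14 level remained low (0.718 RPKM). Kcns2 measured 8.72, 11.2, 9.19 and 9.54 CPM in the 4 Ctrl P1 libraries and 30.3, 30.5, 31.4 and 28.9 in the 4 Ctrl P14 libraries, with tight groups and no overlap (3.13-fold, log2 change 1.65, adjusted p = 4.37e-12). Kcnv1 rose 5.99-fold, Kcng1 4.33-fold, Kcng3 7.35-fold, Kcns3 2.16-fold, Kcng2 2.11-fold and Kcns1 1.73-fold.

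Of the subunits opened by calcium or sodium, Kcnma1, the pore of the BK channel that helps repolarize the spike, measured 70.3, 91.9, 82.8 and 99.8 CPM in the 4 Ctrl P1 libraries and 261, 291, 255 and 242 in the 4 Ctrl P14 libraries. It rose 3.05-fold (log2 change 1.61, adjusted p = 1.06e-10) with no overlap. The sodium-activated Kcnt1 measured 9.11, 8.28, 13.5 and 6.93 CPM in the 4 Ctrl P1 libraries and 51, 56.5, 56.6 and 49.3 in the 4 Ctrl P14 libraries, a 5.65-fold rise (log2 change 2.50, adjusted p = 8.17e-11), and Kcnt2 rose 7.83-fold. The Kcnn genes encode small- and intermediate-conductance calcium-activated channels, which set the pause after a spike, and they did not move as 1 group. Kcnn2 measured 15, 13.5, 14.8 and 11.1 CPM in the 4 Ctrl P1 libraries and 41.2, 43.6, 47 and 47.3 in the 4 Ctrl P14 libraries (3.28-fold higher, log2 change 1.71, adjusted p = 3.31e-10), and Kcnn3 rose 2.07-fold. Kcnn1 did not pass in Ctrl (36.5 ± 3.90 CPM at P1 and 39.1 ± 2.25 at P14, SD, n = 4). Kcnn4, the intermediate-conductance member known mainly from blood and epithelial cells, measured 0.780, 0.457, 0.853 and 0.852 CPM in the 4 Ctrl P1 libraries and 0.136, 0.310, 0.209 and 0.0967 in the 4 Ctrl P14 libraries. It fell 3.83-fold (log2 change -1.94, adjusted p = 0.000542) from a level that was already low. Kcnu1, known as a sperm channel gated by pH, measured 4.99, 5.92, 5.46 and 5.88 CPM in the 4 Ctrl P1 libraries and 2.93, 3.38, 2.44 and 3.63 in the 4 Ctrl P14 libraries and fell 1.77-fold (log2 change -0.83, adjusted p = 4.34e-05) with no overlap.

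The inward rectifiers held the largest rise of any member. The 4 genes of the G-protein-gated channels (Kcnj3, Kcnj5, Kcnj6 and Kcnj9), which inhibitory receptors open, were split 3 to 1. Kcnj9 measured 7.59, 9.39, 6.45 and 5.74 CPM in the 4 Ctrl P1 libraries and 148, 184, 178 and 153 in the 4 Ctrl P14 libraries. Its 22.6-fold rise was the largest of all members (log2 change 4.50 ± 0.25 (SE), adjusted p = 4.29e-11), and the lowest P14 value was far above the highest P1 value. Kcnj3 measured 20.2, 26.5, 20.9 and 23.3 CPM in the 4 Ctrl P1 libraries and 80.8, 99, 93.5 and 86.5 in the 4 Ctrl P14 libraries (3.95-fold higher, log2 change 1.98, adjusted p = 5.72e-12), with 31.1% of its exon bases shared with a gene on the other strand. Kcnj6 measured 2.51, 4.31, 2.82 and 2.53 CPM in the 4 Ctrl P1 libraries and 17.5, 22.3, 17.2 and 15.6 in the 4 Ctrl P14 libraries (5.93-fold higher, log2 change 2.57, adjusted p = 1.37e-09). Kcnj5, the subunit known from the heart atrium, measured 1.75, 1.83, 2.05 and 1.65 CPM in the 4 Ctrl P1 libraries and 0.634, 0.172, 0.906 and 0.218 in the 4 Ctrl P14 libraries. It fell 4.25-fold (log2 change -2.09 ± 0.40 (SE), adjusted p = 0.000184), with P14 libraries that varied among themselves and lay below all P1 libraries. Per length, Kcnj3 was the highest of the 4 in Ctrl P1 (4.36 RPKM) and Kcnj9 in Ctrl P14 (38.7 RPKM).

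The classical inward rectifiers Kcnj2, Kcnj4, Kcnj12 and Kcnj14 hold neurons near the potassium potential. Kcnj4 measured 5.92, 8.33, 7.27 and 6.13 CPM in the 4 Ctrl P1 libraries and 146, 134, 140.2 and 133 in the 4 Ctrl P14 libraries. It rose 19.95-fold (log2 change 4.32 ± 0.11 (SE), adjusted p = 1.41e-14) and per length ranked first of all 81 members in Ctrl P14 (64.3 RPKM), from rank 36 in Ctrl P1 (3.21 RPKM). Kcnj2 measured 16, 14.3, 12.4 and 15 CPM in the 4 Ctrl P1 libraries and 7.84, 7.25, 8.09 and 6.84 in the 4 Ctrl P14 libraries, a 1.93-fold fall (log2 change -0.95, adjusted p = 3.39e-05) with no overlap. Kcnj12 rose 3.55-fold, and Kcnj14 did not pass (log2 change 0.27). Kcnj2 and Kcnj16 are neighbours on chromosome 11 with 38.2 kb between them, and they moved in opposite directions.

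Kcnj10 and Kcnj16 encode the channel by which astrocytes take up potassium. Kcnj10 measured 36.8, 42.4, 37.8 and 32.8 CPM in the 4 Ctrl P1 libraries and 290.0, 245, 232 and 269 in the 4 Ctrl P14 libraries, and its 6.91-fold rise showed no overlap (log2 change 2.79, adjusted p = 5.95e-10). Kcnj16 measured 2.17, 4.28, 5.28 and 3.44 CPM in the 4 Ctrl P1 libraries and 7.47, 6.86, 5.65 and 23.5 in the 4 Ctrl P14 libraries. Kcnj16 rose 2.92-fold in Ctrl (log2 change 1.55, adjusted p = 0.0039), and P14 replicate 4 was several times the other P14 libraries. Without that library the log2 change was 0.84. Astrocyte markers summed to 506 to 657 CPM in Ctrl P1 and 1032 to 1128 in Ctrl P14, with 4 of 5 higher at P14; their part in the rise of Kcnj10 and Kcnj16 was not tested. The pores of the ATP-sensitive channels were Kcnj11, which rose 1.75-fold, and Kcnj8, known from pericytes, which fell by 0.31 on the log2 scale (adjusted p = 0.0498) with overlapping ages. The fall of Kcnj8 missed the threshold in 10 of 16 fits that each left out 1 library. These libraries were Ctrl P1 replicates 1 and 2, Ctrl P14 replicates 1, 2 and 3, PNS P1 replicates 1, 2 and 3, and PNS P14 replicates 2 and 3, and the log2 changes in these 10 fits were -0.34 to -0.17 (adjusted p = 0.0503 to 0.24). Mural and endothelial markers summed to 217 to 262 CPM in Ctrl P1 and 188 to 229 in Ctrl P14, and their part in the fall of Kcnj8 was not tested. Kcnj13, the choroid plexus subunit, and Kcnj15 did not pass (log2 changes 0.49 and 0.32), and 49.1% of the exon bases of Kcnj13 lie over a gene on the other strand.

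Kcnj9 and Kcnj10 lie on chromosome 1 with 11.9 kb between them, are transcribed away from each other and rose together, so their upstream sequences are shown. In the RefSeq table (GRCm38.p6) a window of 250 bases before to 50 after the start was found for 58 of the 81 members. The GC-box letters GGGCGG, read on both strands, were in 39 of 58 member windows (67.2%) and in 38.2% of the windows of all 27025 genes. They were in 29 of 42 members that rose and 6 of 9 that fell. The letters TATAAA, on either strand, were in 5 of 58 member windows (8.62%) against 15.7% of all genes. The median number of CpG pairs per window was 18 in members and 8 over all genes. All genes here are those with a RefSeq window, expressed in these libraries or not, whereas members were chosen by level. The members were thus not compared with genes of like level. The 250 bases before each start are printed with both motifs in capitals on the strand of the gene, where CCGCCC is GGGCGG on the other strand.
Kcnj9: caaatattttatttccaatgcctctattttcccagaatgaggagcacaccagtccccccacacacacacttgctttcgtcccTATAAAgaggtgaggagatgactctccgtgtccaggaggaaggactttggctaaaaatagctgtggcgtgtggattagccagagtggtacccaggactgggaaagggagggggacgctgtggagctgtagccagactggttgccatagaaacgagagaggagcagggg
Kcnj10: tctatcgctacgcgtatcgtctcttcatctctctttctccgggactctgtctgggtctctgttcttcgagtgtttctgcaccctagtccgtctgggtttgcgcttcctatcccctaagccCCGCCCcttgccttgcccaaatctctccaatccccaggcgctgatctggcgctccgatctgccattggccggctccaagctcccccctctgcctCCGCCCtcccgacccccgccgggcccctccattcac
These lie at chr1:172329323-172329572 (minus strand) and chr1:172340960-172341209 (plus strand). The Kcnj9 window holds 1 TATAAA, no GGGCGG and 5 CpG pairs, and the Kcnj10 window 3 GGGCGG, of which 2 are in the printed part, no TATAAA and 21 CpG pairs. A match of letters is a description of the window and not evidence of binding.

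The tandem pore domain subunits give leak currents that set the resting potential. The mechanically gated group (Kcnk2, Kcnk4 and Kcnk10) was split. Kcnk4 measured 1.27, 1.86, 0.933 and 0.935 CPM in the 4 Ctrl P1 libraries and 14.7, 12.5, 13.9 and 13.2 in the 4 Ctrl P14 libraries and rose 10.6-fold (log2 change 3.41, adjusted p = 1.15e-10). Kcnk10 measured 46.4, 53.1, 44.9 and 51.4 CPM in the 4 Ctrl P1 libraries and 20.1, 18.1, 17.7 and 19.7 in the 4 Ctrl P14 libraries, a 2.58-fold fall (log2 change -1.37 ± 0.11 (SE), adjusted p = 9.11e-09). Both were separated between ages. Kcnk2 measured 44.8, 44.3, 43.4 and 41.8 CPM in the 4 Ctrl P1 libraries and 63.7, 59, 60.2 and 57.4 in the 4 Ctrl P14 libraries, a smaller rise of 1.38-fold with no overlap (log2 change 0.46, adjusted p = 2.13e-05).

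Of the acid-sensitive leak genes, Kcnk9 measured 18.6, 25.5, 20.8 and 21.8 CPM in the 4 Ctrl P1 libraries and 105, 104, 97.9 and 94.4 in the 4 Ctrl P14 libraries (4.63-fold higher, log2 change 2.21, adjusted p = 2.2e-12), and Kcnk3 did not pass (log2 change 0.11). Kcnk15, a related gene, rose 13.4-fold by the fit from P1 values of 0 to 0.0799 CPM, near the limit of detection. Kcnk1, the weakly inward-rectifying leak subunit, measured 25.9, 27.9, 27.7 and 30.2 CPM in the 4 Ctrl P1 libraries and 91, 83.6, 92.9 and 81.6 in the 4 Ctrl P14 libraries (3.13-fold higher, log2 change 1.64, adjusted p = 1.78e-10). Kcnk12 rose from 6.74 to 8.40 CPM in Ctrl P1 to 28.3 to 33.3 in Ctrl P14. Kcnk13 and Kcnk6, both known from microglia, rose 2.64-fold and 1.71-fold, while microglial markers summed to 97 to 161 CPM in Ctrl P1 and 236 to 258 in Ctrl P14. The part of microglia in these rises was not tested. Kcnk5 did not pass in Ctrl (log2 change -0.55).

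Among the auxiliary subunits, the 3 Kcnab genes, whose products bind Kv1 channels and can speed their inactivation, rose. Kcnab1 measured 16.3, 16.4, 13.9 and 16.6 CPM in the 4 Ctrl P1 libraries and 63.3, 63, 54.9 and 67.9 in the 4 Ctrl P14 libraries (3.95-fold higher, log2 change 1.98, adjusted p = 8.17e-11). Kcnab2 rose 6.79-fold and Kcnab3 2.95-fold. The Kcnip genes encode calcium-binding partners of Kv4 channels. Kcnip3, which is also described as a transcriptional repressor, measured 53.9, 56.9, 64 and 61.5 CPM in the 4 Ctrl P1 libraries and 81.9, 83.8, 82.7 and 73.9 in the 4 Ctrl P14 libraries and rose 1.36-fold (log2 change 0.45, adjusted p = 0.000141). Kcnip2 rose 1.61-fold and Kcnip4 6.87-fold, and Kcnip1 did not pass (log2 change -0.02).

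The BK partners went both ways: Kcnmb4, the neuronal one, measured 46.4, 51.2, 41.3 and 49.5 CPM in the 4 Ctrl P1 libraries and 88.8, 83.2, 89.1 and 85.9 in the 4 Ctrl P14 libraries (1.84-fold higher, log2 change 0.88, adjusted p = 9.58e-08), and 20.8% of its exon bases are shared with an antisense gene. Kcnmb2, which makes BK channels inactivate, measured 6.60, 7.56, 6.58 and 6.82 CPM in the 4 Ctrl P1 libraries and 3.29, 3.51, 3.07 and 2.90 in the 4 Ctrl P14 libraries and fell 2.15-fold (log2 change -1.10, adjusted p = 2.62e-06). Kcnmb1, known from smooth muscle, lies within the span of Kcnip1 on the other strand and rose 2.64-fold from a low level (0.208 ± 0.0376 CPM, SD, n = 4), and Kcne4 rose 1.67-fold (adjusted p = 0.026). The rise of Kcne4 missed the threshold without Ctrl P1 replicate 3 (log2 change 0.58) and without Ctrl P14 replicate 4 (0.65).

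A list of 24 genes outside the Kcn names whose products bind or resemble these channels was read beside the members. Of 23 tested in Ctrl, 16 rose, 3 fell and 4 did not pass, with a median log2 change of 1.15, where 34.8% of all genes were higher, 36.4% lower and the median was -0.04. Dpp6 and Dpp10, partners of Kv4, rose by log2 1.26 and 1.04. Lgi1, Adam22 and Adam23, of the Kv1 complex at axons, rose by 2.12, 1.25 and 1.70, whereas Cntn2, the axonal adhesion protein of the same complex, fell by 2.03 on the log2 scale. Of the pacemaker genes, Hcn2 rose by 1.28, Hcn4 fell by 1.66 on the log2 scale, and Hcn3 did not pass (-0.05).

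The same change was measured in a second set of libraries, the PNS mice. There 61 of 81 members were higher at P14, 11 lower and 9 not called (58, 10 and 9 of the 77 at the level at both ages), against 34.3% higher and 38.0% lower (72.3% in either direction) over all genes, and the median log2 change was 1.21 against -0.07. Of the members, 67 had the same call in Ctrl and in PNS (57 higher and 10 lower). Of the 77 at the level at both ages 63 did, and of all genes 64.6% did. Opposite calls were found in 0 members. The PNS libraries are separate from the Ctrl libraries, but both changes came from the same edgeR fit, with a shared estimate of spread and TMM scaling. The calls in Ctrl and in PNS are thus not fully independent. PNS P1 replicates 1 to 3 also held the raised olfactory bulb signal described above. Across the 81 members the log2 changes in Ctrl and PNS had a Pearson r of 0.97, a description of genes measured in 16 libraries of 1 model, and the median gap between them was 0.12. Kcnj9 had log2 changes of 4.50 in Ctrl and 4.52 in PNS, Kcnh3 3.81 and 3.92, Kcnj5 -2.09 and -2.10, and Kcnh8 -3.06 and -2.50.

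Called in 1 set alone were Kcne4, Kcng2, Kcnj8 and Kcnk13 in Ctrl, and Kcnj14, Kcnj15, Kcnk5, Kcnn1 and Kcnq1 in PNS. For Kcnn1 the log2 change was 0.10 in Ctrl and 0.62 in PNS, and for Kcnk5 -0.55 and -1.44. In PNS the call of Kcnd3 was lost without Ctrl P14 replicate 2, PNS P1 replicate 2 or 3, or PNS P14 replicate 1, 2 or 3, with log2 changes of -0.22 to -0.13. The call of Kcnj15 was lost without PNS P1 replicate 1, 2 or 4 or PNS P14 replicate 2, 3 or 4, with log2 changes of 0.57 to 0.66, and that of Kcnk6 was lost without PNS P1 replicate 4 (0.41). Whether such changes differ between Ctrl and PNS is the same question as whether the PNS effect differs between ages, and that test called 0 of the 81 members by limma and by edgeR, and Kcnn1 by DESeq2, as described with the PNS effects.

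Per length, the high members at P1 included auxiliary and Kv4 subunits: Kcnip2 (18 RPKM in Ctrl), Kcnip3 (16.7), Kcnd2 (14.5) and Kcnmb4 (14.2). In Ctrl P14 the highest were Kcnj4 (64.3), Kcnf1 (53.4), Kcnj10 (47.9), Kcnab2 (46.9), Kcnh3 (46.0) and Kcnc4 (45.3), and the same 6 led in PNS P14 in another order. No gene was among the first 5 at both ages. At the low end in Ctrl P14 were Kcnn4 (0.0367 RPKM), Kcnh8 (0.0540) and Kcnj15 (0.0669).

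No channel gene passed the test of PNS against Ctrl at P1. Of 78 members tested, 0 passed the limma test, as did 0.0% of all 16711 genes, and the smallest adjusted p of a member was 0.669. An unadjusted p below 0.05 was found in 5 members (6.41%, against 6.67% of all genes). By direction, 31 members had a positive and 47 a negative difference of PNS minus Ctrl, where 44.5% of all genes were positive, and the median was -0.05 against -0.02 over all genes. This balance turned without PNS P1 replicates 2 and 3, the libraries with the most olfactory bulb and meningeal signal, to 44 of 78 positive (median 0.03), and without Ctrl P1 replicate 2 it was 39 of 78 (median 0.000615). The 95% interval of the difference lay within 1.5-fold for 59 of the 78, or 75.6%, against 72.9% of all genes. The groups did not overlap in 4 members (5.13%, against 3.23%): Kcnj4, Kcne4, Kcnip2 and Kcnn1. DESeq2 on the recovered reads called 2 of the 4, Kcnj4 and Kcnn1, and called 0.4% of all genes, while edgeR on those reads called 0 members and 0.0% of all genes.

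Kcnj4 held 299.9, 423, 368 and 314 in Ctrl and 489, 589.6, 549.6 and 445 in PNS (normalized reads at P1, replicates 1 to 4). All 4 PNS libraries lay above all 4 Ctrl libraries. By limma it had a log2 difference 0.56 (95% interval 0.27 to 0.86), unadjusted p = 0.00164, adjusted p = 0.669. DESeq2 gave 0.56 with an adjusted p of 0.0323. Leaving out 1 library at a time gave log2 differences of 0.49 to 0.66, and without PNS P1 replicates 2 and 3 it was 0.42. Within PNS P1, Kcnj4 was highest in replicate 2, then 3, 1 and 4, the order of the olfactory bulb marker sums (119, 252, 176 and 7.80 CPM in replicates 1 to 4). The part of bulb or meningeal tissue in the difference was not tested. At P14, where Kcnj4 had become the most abundant member per length, it held 4782, 4406, 4695 and 4409 in Ctrl and 4359, 4146, 4304 and 4784 in PNS, and the groups overlapped (log2 difference -0.06).

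Kcnn1, a small-conductance calcium-activated subunit, held 2082, 1606, 1834 and 1908 in Ctrl and 1549, 1286, 1409 and 1396 in PNS at P1. Every PNS library lay below every Ctrl library. Striatal markers, too, summed to less in every PNS P1 library (204, 187, 195 and 200.2 CPM) than in every Ctrl P1 library (307, 213, 209 and 239), with 1 of 7 genes positive. Ctrl replicate 1 was the highest library for both, and the part of striatal tissue in the difference was not tested. By limma Kcnn1 had a log2 difference -0.39 (95% interval -0.59 to -0.20), unadjusted p = 0.00116, adjusted p = 0.669. DESeq2 gave -0.40 with an adjusted p of 0.0268. Leaving out 1 library at a time gave -0.46 to -0.34. Without PNS P1 replicates 2 and 3 it was -0.33. At P14 Kcnn1 held 1286, 1207, 1287 and 1392 in Ctrl and 1372, 1473, 1437 and 1412 in PNS, where PNS was the higher group on average with overlapping libraries (log2 difference 0.14 (95% interval 0.00 to 0.28), unadjusted p = 0.0443, adjusted p = 0.988).

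Kcne4, an auxiliary subunit that dampens Kv1 and Kcnq1 channels in heterologous cells, held 37.6, 31.6, 18.9 and 33.8 in Ctrl and 44.7, 62, 58.4 and 41.2 in PNS at P1 (log2 difference 0.76 (95% interval 0.20 to 1.33), unadjusted p = 0.0132, adjusted p = 0.687). The PNS libraries all lay above the Ctrl libraries, with the highest values in replicates 2 and 3. Mural and endothelial markers summed to 299, 331, 375 and 263 CPM in PNS P1 and 262, 257, 217 and 262 in Ctrl P1, with 5 of 5 genes positive and, again, no overlap and the highest sums in replicates 2 and 3. Kcnn4 held 39.5, 23.2, 43.1 and 43.7 in Ctrl and 71.6, 128, 96.5 and 38.8 in PNS (log2 difference 1.06 (95% interval 0.27 to 1.84), unadjusted p = 0.0133, adjusted p = 0.687). PNS replicates 1 to 3 were above Ctrl and replicate 4 was within the Ctrl range. Kcnk5, an alkaline-activated leak subunit, held 58.8, 50.1, 47.2 and 32.4 in Ctrl and 52.8, 106, 85 and 53.9 in PNS (log2 difference 0.62 (95% interval 0.01 to 1.23), unadjusted p = 0.0478, adjusted p = 0.744). Its highest values, too, were in PNS replicates 2 and 3. Without those 2 libraries the log2 differences of Kcne4, Kcnn4 and Kcnk5 were 0.52, 0.53 and 0.21, against 0.76, 1.06 and 0.62 with all libraries. The part of bulb, meningeal or vascular tissue in all 3 was not tested.

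On the lower side at P1 the next smallest p belonged to Kcnip3, Kcnk1 and Kcna6. Kcnip3 held 2733, 2893, 3239 and 3153 in Ctrl and 3060.0, 2586, 2421 and 2715 in PNS (log2 difference -0.16). Kcnk1 held 1311, 1416, 1403 and 1548 in Ctrl and 1483, 957, 1245 and 1218 in PNS (-0.23). Kcna6 held 2337, 2788, 2712 and 2732 in Ctrl and 2624, 2045, 2353 and 2458 in PNS (-0.16). In each of these the groups overlapped, and PNS replicate 1 was the highest PNS library. Kcnip2, a Kv4 partner whose groups did not overlap, held 2645, 3455, 3350.5 and 3310.4 in Ctrl and 3587, 3545, 3619 and 3469 in PNS, where the PNS libraries lay just above the highest Ctrl library (log2 difference 0.16 (95% interval -0.02 to 0.35), unadjusted p = 0.0723, adjusted p = 0.755). By role the median log2 difference at P1 ran from -0.08 for the silent to 0.01 for the auxiliary subunits.

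**Figure D4:**
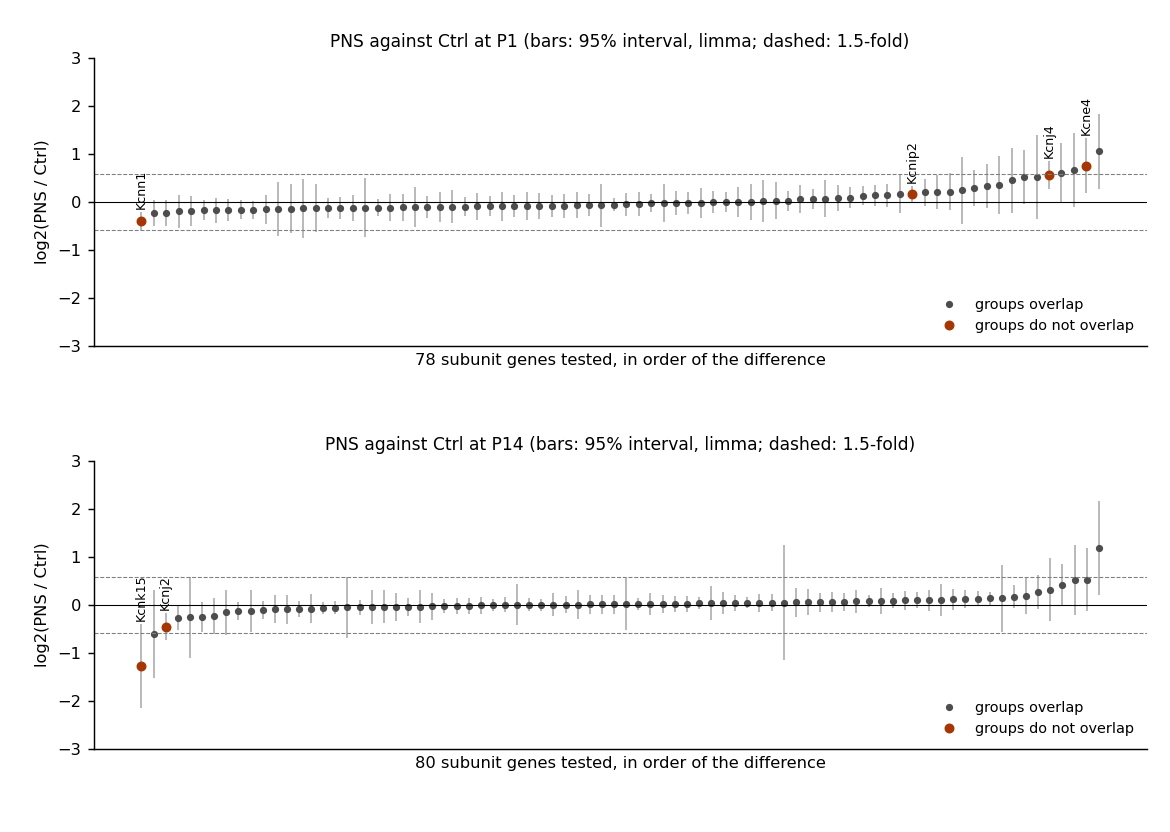
Log2 difference of PNS minus Ctrl (vertical axis) with its 95% interval from limma for each member tested at P1 (78) and at P14 (80), in order of the difference; larger marks are members whose groups do not overlap, and dashed lines mark 1.5-fold. Most intervals lie within 1.5-fold, 59 at P1 and 65 at P14.

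At P14, too, no channel gene passed. Of 80 members tested, 0 passed the limma test (0.0% of all 15873 genes), the smallest adjusted p was 0.988, and 5 had an unadjusted p below 0.05 (6.25%, against 3.02% of all genes). Differences were positive in 50 and negative in 30 members, where 50.6% of all genes were positive, with a median of 0.01 against 0.00 (40 of 80 were positive without Ctrl P14 replicate 4), and the 95% interval lay within 1.5-fold for 65 (81.25%, against 78.1%). The groups did not overlap in 2 members (2.5%, against 2.12%), Kcnj2 and Kcnk15. DESeq2 and edgeR on the recovered reads called 0 members, with 0.0263% and 0.0% of all genes called.

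Kcnj2 held 258, 238, 271 and 226 in Ctrl and 185, 145, 212 and 186 in PNS at P14. Each PNS library lay below each Ctrl library (log2 difference -0.46 (95% interval -0.74 to -0.17), unadjusted p = 0.00478, adjusted p = 0.988), and leaving out 1 library at a time gave -0.53 to -0.35. At P1 the groups of Kcnj2 overlapped (log2 difference 0.01). Kcnk15 held 13.9, 27.2, 28 and 16.8 in Ctrl and 3.96, 6.20, 13 and 11.8 in PNS, low counts in every library that were lower in each PNS library (log2 difference -1.27 (95% interval -2.14 to -0.40), unadjusted p = 0.00848, adjusted p = 0.988).

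Kcnj16 held 245, 225, 189 and 778 in Ctrl and 566, 567, 502 and 1370.4 in PNS at P14 (log2 difference 1.19 (95% interval 0.21 to 2.16), unadjusted p = 0.0214, adjusted p = 0.988). PNS replicates 1 to 3 lay above Ctrl replicates 1 to 3, and replicate 4 was the highest of each group, so the groups overlapped through Ctrl replicate 4. Without that Ctrl library the log2 difference was 1.64, and without PNS replicate 4 it was 0.85. Kcnj10, whose product joins that of Kcnj16, held 9524, 8070.5, 7777 and 8888 in Ctrl and 8789, 9022, 7646 and 14769 in PNS, with PNS replicate 4 above all others and a log2 difference of 0.19. Astrocyte markers at P14 summed to 1032, 1077, 1128 and 1123 CPM in Ctrl and 975, 1033, 1051 and 1052 in PNS, and oligodendrocyte markers to 1458, 565, 1131 and 1587 and 729.8, 1179.8, 1503 and 431. Neither sum was higher in PNS on average. In replicate 4, where Kcnj16 was highest in both groups, oligodendrocyte markers were the highest of Ctrl and the lowest of PNS. Oligodendrocyte precursor markers summed to 291, 292, 308 and 295 CPM in Ctrl and 278, 317, 316 and 344 in PNS, with 3 of 3 genes positive. Their highest sum was in replicate 3 of Ctrl and replicate 4 of PNS. The part of these cell types in the difference of Kcnj16 was not tested. Kcnj9 was low in the same PNS replicate 4, at 4874, 6055, 5976 and 5062 in Ctrl and 6302, 6048, 5426 and 3049 in PNS (log2 difference -0.13).

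The other members with the smallest p at P14 had overlapping groups. Kcnh4 held 268, 258, 243 and 246 in Ctrl and 253, 223, 188 and 186 in PNS (log2 difference -0.27), and PNS replicates 2 to 4 were below Ctrl. Kcna5 held 106, 95.2, 107 and 106 in Ctrl and 84.4, 73.2, 104 and 89.2 in PNS (-0.25), with PNS replicate 3 inside the Ctrl range. Both are voltage-gated subunits. Kcnj14 held 18.8, 22.1, 18.7 and 24 in Ctrl and 30.3, 27.3, 31.3 and 23.6 in PNS (0.41), where PNS replicates 1 to 3 were above Ctrl. Kcnmb1 held 21.3, 11.3, 16.4 and 24 in Ctrl and 21.1, 28.5, 19.97 and 36.7 in PNS (0.53), from low counts in both groups.

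**Figure D5:**
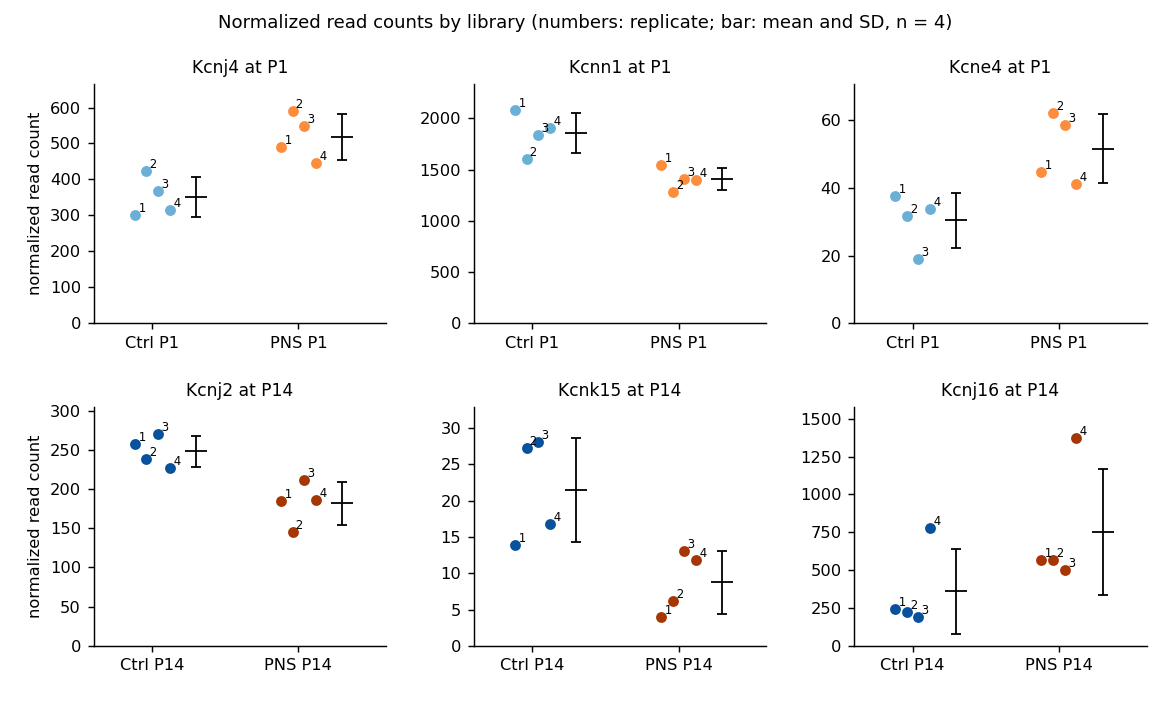
Normalized read counts (vertical axes) of Kcnj4, Kcnn1 and Kcne4 at P1 and of Kcnj2, Kcnk15 and Kcnj16 at P14; points are libraries with their replicate number, bars the mean and SD of 4. The groups are separated in the first 5 panels and overlap for Kcnj16 through Ctrl replicate 4 (778).

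The difference between ages was tested directly, by subtracting the effect of PNS in the younger pups from its effect in the older ones. This test called 0 of 81 members and 0.0% of all 16870 genes by limma, with 5 members at an unadjusted p below 0.05 (5.99% of all genes) and a smallest adjusted p of 0.539. Kcnn1 had the smallest p: its effect was -0.39 at P1 and 0.14 at P14, a difference of 0.53 (95% interval 0.31 to 0.76, unadjusted p = 0.000128). DESeq2 called Kcnn1 alone of the members (0.54, adjusted p = 0.0121), together with 0.0602% of all genes, and edgeR called 0 members and 0.0% of all genes. Kcnj4 had a difference of -0.62 (95% interval -0.93 to -0.32, unadjusted p = 0.000471). Without PNS P1 replicate 4 its limma adjusted p was 0.0371 with a difference of -0.69, in a fit that called 0.445% of all genes. That library had the lowest olfactory bulb marker sum of PNS P1 (7.80 CPM, against 119, 252 and 176 in replicates 1 to 3). Without PNS P1 replicates 2 and 3 the difference of Kcnj4 was -0.48, and the part of bulb tissue was not tested. Kcnj16 (1.33), Kcna6 (0.28) and Kcnk10 (0.34) had the next smallest p on the higher side, and Kcnip2 (-0.23), Kcnj2 (-0.47) and Kcne4 (-0.81) on the lower side. Kcnk10 held 2351, 2699, 2269.6 and 2637 in Ctrl and 2514, 1933, 1949 and 2519 in PNS at P1 and 659, 597, 593 and 650.3 in Ctrl and 602, 638, 736 and 856 in PNS at P14, and the groups overlapped at both ages. The effects at both ages of Kcnn1 and of Kcnj4 come from libraries that also enter their developmental changes, so those values are not separate evidence.

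Of the partners outside the Kcn names, 22 were tested for PNS against Ctrl at P1 and 23 at P14, and limma called 0 at either age. An unadjusted p below 0.05 was found in 2 at P1, Dlg1 (log2 difference 0.18), a scaffold of Kv1 and inward rectifier channels, and Hcn3 (-0.20), and in 0 at P14.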

How the data were processed

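Per the submitters' processing notes, the authors used cutadapt, STAR 2.7.3a, HTSeq, DESeq2 and GRCm38; the strand setting is not given in the sources used here. The deposited signal values are the authors' normalized read counts, 1 table per age, each normalized separately. Dividing by the smallest step gave whole reads for 99.97% to 100.00% of positive values in each library (tolerance 0.0051).

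PNS was compared with Ctrl within each table by limma 3.58.1 on log2(value + 1) after removing genes whose table mean was below 10; this scale understates the change of low genes; the difference between ages used all 16 libraries. P14 was compared with P1 by edgeR 4.0.16 (quasi-likelihood, TMM, filterByExpr) on the recovered reads of all 16 libraries. P-values were adjusted by Benjamini-Hochberg over all genes tested (threshold 0.05). CPM are TMM-scaled, and RPKM divide them by the length of all GENCODE M21 exons of a gene, joined over its transcripts. This is not the length of the transcripts expressed, so ranks and shares per length depend on the annotation. The length was 16976 bases for Kcnma1 and 2152 for Kcnj4. DESeq2 1.42.0 and edgeR on recovered reads, other pseudocounts (0.5 and 5), other filters, a replicate block and leaving out libraries were alternatives. The scripts were tested on simulated data. Replicate pairs differed beyond counting noise (chi-square per gene 6.07 to 59.5).

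Members given by library were the 8 largest rises and falls with a mean of at least 50, the 4 smallest p in each direction for each PNS comparison, and a list of well-known subunits; other members are named within their family, and some members are not reported here. The members, roles, partners and markers were chosen with earlier results of these data known.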

Additional observations from a re-analysis of the deposited data

Results flagged for a closer look

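In 12 of 188 groups of 4 libraries tested, over 47 genes, 1 library lay far from the other 3 (gap over range above Dixon's critical value), and chance flags about 1 in 20 groups. Values are normalized read counts, given against the range of the other 3 libraries of the group.

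At P1, Ctrl replicate 2 was high for Kcnf1, at 1741.1 against 1424.57 to 1465.95, and for Kcnj6, at 219.15 against 127.31 to 142.86. Ctrl replicate 1, which had the highest striatal marker sum of Ctrl P1, was low for Kcnc4, at 820.74 against 1072.93 to 1109.66, and for Kcna6, at 2336.84 against 2711.67 to 2787.61. Among PNS P1 libraries, replicate 2 was low for Kcnma1, at 3666.58 against 4352.68 to 4487.81, and replicate 4 was high for Kcnq5, at 2963.06 against 2452.1 to 2524.95.

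At P14, PNS replicate 3 was low for Kcnh1, at 3698.65 against 4303.9 to 4371.01, and for Kcnip2, at 2978.89 against 3244.45 to 3270.61. PNS replicate 4 was high for Kcnk9, at 4155.72 against 3430.56 to 3488.54, and for Kcnj16, at 1370.38 against 501.84 to 567. Ctrl replicate 4 was also high for Kcnj16, at 778.25 against 189.22 to 245.19, and Ctrl replicate 2 was low for Kcna5, at 95.17 against 105.51 to 107.46.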

How the results depend on the processing

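No called change with age of a member given by library reversed under the alternatives run. The balance of PNS directions did turn: the median PNS difference of the members at P1 went from -0.05 to 0.03 without PNS P1 replicates 2 and 3 and to 0.000615 without Ctrl P1 replicate 2. The median of the difference between ages went from 0.03 to -0.01 without PNS P1 replicates 2 and 3 and to -0.01 without PNS P1 replicate 2 alone. Members at an unadjusted p below 0.05, 5 in each comparison, numbered 4 to 10 at P1, 2 to 7 at P14 and 2 to 12 for the difference with 1 library left out, with the most at P1 without PNS P1 replicate 1 and for the difference without PNS P1 replicate 4. DESeq2 on recovered reads called 2 members at P1, 1 higher (Kcnj4) and 1 lower (Kcnn1), and 1 member for the difference between ages, higher (Kcnn1), where limma called 0. Leaving out 1 library at a time gave 0 calls each time at P1 and at P14 and 0 to 1 for the difference, the 1 being Kcnj4, lower, without PNS P1 replicate 4, a fit that called 0.445% of all genes for the difference and 0.718% at P1. The cause was not tested. For development the same procedure gave 69 to 72 calls in Ctrl and 70 to 74 in PNS. Same-numbered libraries had correlations of -0.16 to 0.21, which cannot exclude that the numbers pair some samples. With a replicate block, 71 members were called in Ctrl, 73 in PNS and 0 for each PNS comparison. Leaving out PNS P1 replicates 2 and 3 was not run for P14, which holds no P1 library. Depth limits the low members: Kcnk15, Kcng4 and Kcnh8 rest on few reads at 1 age.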
